A study of Pan troglodytes with 8 samples.

Results

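Fibroblast growth factor (FGF) signalling genes were followed through 4 cell populations sorted from chimpanzee cerebral organoids. Members were taken by symbol from the chimpanzee-genome count table: FGF followed by a number, FGFR1 to FGFR4, SPRY1 to SPRY4, SPRED1 to SPRED3, DUSP4 to DUSP6, ETV4 and ETV5. This gave 38 genes of 60583 named ones. By role they were 18 secreted ligands, 4 FGF homologous factors (FGF11 to FGF14), 4 receptors, 7 Sprouty and Spred inhibitors, 3 dual specificity phosphatases and 2 ETS transcription factors.

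The organoids came from one induced pluripotent stem cell line of Pan troglodytes, SandraA, so all libraries share 1 genetic background, and they were taken at week 8 of culture, give or take 3 days. The populations were BCL11B-positive neurons (N), basal intermediate progenitors (bIP), basal radial glia (bRG) and apical radial glia (aRG), with 2 bulk RNA-seq libraries each. No population was treated or genetically altered, per the labels. Beyond the naming of BCL11B for the neurons, the sources used here do not give the sorting gates.

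Secreted FGFs bind receptor tyrosine kinases on the cell surface, with heparan sulfate as a cofactor, and the receptors act mainly through Ras and the kinases ERK1 and ERK2. ERK switches on the ETS factors ETV4 and ETV5 together with its own brakes, the Sprouty and Spred proteins and phosphatases such as DUSP6, which is why these genes are widely read as a record of pathway activity. In the developing mouse cortex FGF signalling keeps radial glia proliferating and holds back their differentiation. The FGF homologous factors belong to the family by sequence but are not secreted; they bind voltage-gated sodium channels inside neurons.

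Library totals ranged from 24649971 to 33245892 counts. N, bIP and radial glia stood out from each other in the levels of radial glia markers and EOMES, given here as TMM-scaled CPM. This unit is reads of a gene relative to the library total, scaled with edgeR's TMM factors, and is called CPM below. The basal and apical radial glia markers did not tell bRG from aRG with edgeR, as given further on. The summed level of 9 radial glia markers was 96.5 to 188 CPM in N, 633 to 644 in bIP, 2393 to 2509 in bRG and 3532 to 3710 in aRG. One of these, HES5, was listed at 0 throughout. Summed neuron markers were at 5004 and 5082 CPM in N, 3211 and 4181 in bIP, and 700 and 956 in aRG. In N over bIP 0 of the 8 neuron markers passed with edgeR, against 2.54% of all genes. EOMES, the marker of intermediate progenitors, was at 1357 and 1540 CPM in bIP, against 90.4 and 184 in aRG. The 7 basal radial glia markers summed to 1103 and 712 CPM in N, 613 and 750 in bIP, 517 and 722 in bRG, and 594 and 755 in aRG, a sum carried by PTPRZ1 and separating no population. Of the 7, both bRG libraries lay above both aRG libraries in 1 (17.5% of all genes tested) and below them in 2 (14.1%). HOPX was at 33.5 and 28.2 CPM in bRG and at 41.9 and 49.7 CPM in aRG. MOXD1 was at 3.24 and 3.40 CPM in bRG and at 1.93 and 1.30 CPM in aRG. With edgeR 0 of the 7 passed in bRG over aRG, where 0 had an unadjusted p under 0.05. Of 4 apical radial glia markers 0 passed there and 0 had an unadjusted p under 0.05, with both bRG libraries below both aRG libraries in 2. The aRG libraries carried choroid plexus transcripts, summed at 863 CPM in replicate 1 and 3230 in replicate 2, against 36.2 to 75.8 in the other 6 libraries. TTR carried the aRG sums, at 819 and 3092 CPM. Both bRG libraries lay below both aRG libraries in 5 of the 6 genes (14.1% of all genes), KCNJ13 being the exception. Mesenchymal and vascular transcripts, 9 genes, summed to 70.6 and 34.5 CPM in N, 158 and 157 in bIP, 313 and 365 in bRG, and 409 and 2041 in aRG. In N over bRG 6 of the 9 fell (66.7%, against 3.39% of all genes). Cortical hem markers, of which WNT3A was listed at 0, summed to 57.3 to 78.0 CPM in N and bIP, 122 and 155 in bRG, and 165 and 235 in aRG. Both sums were thus higher in radial glia, as were many of the genes below. Of the 9 mesenchymal and vascular genes, both N libraries lay below both aRG libraries in 7 and above them in 1, CDH5. Among the 7 hem markers tested they lay below in 5 and above in 1, WNT2B. Of all genes, 26.2% lay below and 23% above in this way. MALAT1, an abundant nuclear RNA, took 7.33% to 8.57% of counts in the libraries numbered 1 and 3.61% to 6.47% in those numbered 2. Of the 34 genes tested, 4 were higher in number 1 in each population (11.8%, against 11.5% of all genes) and 6 in number 2 (17.6%, against 10.8%). The part of these cell types in any result below was not tested, and results without aRG replicate 2 are given where they change a call. For the replicate number, a refit with it as a block is given in the last section. Since these are bulk samples of sorted cells, fewer cells of a type and less RNA per cell cannot be told apart. Nothing in the labels says that replicates are separate cultures; the p-values therefore reflect only how much these libraries vary, and that variation may be technical.

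Of the 38 genes, 34 passed the low-count filter and were tested with edgeR over all 35382 genes that passed. The other 4, FGF4, FGF16, FGF19 and FGF21, had at most 10 counts in any library. In N over aRG, 14 of the 34 passed an adjusted p of 0.05 (41.2%), against 9.67% of all genes tested. DUSP5, FGF13, FGF14 and FGF18 rose, where 4.87% of all genes rose, and 10 genes fell, where 4.8% of all genes fell. In bIP over aRG 7 of 34 passed (20.6%), against 2.83% of all genes; each fell, where 1.5% of all genes fell and 1.34% rose. In N over bRG 11 of 34 passed (32.4%), against 6.01% of all genes; 2 rose, against 2.62%, and 9 fell, against 3.39%. In bIP over bRG 5 of 34 passed (14.7%), against 1.03% of all genes; each fell, where 0.574% of all genes fell and 0.458% rose. In N over bIP 4 of 34 passed (11.8%), against 2.54% of all genes; 2 rose, against 1.06%, and 2 fell, against 1.48%. In bRG over aRG 0 of 34 passed, against 0.00283% of all genes, which is 1 gene. Without regard to p-values, both N libraries lay above both aRG libraries in 10 of 34 genes (23% of all genes) and below them in 15 (26.2%). Both bIP libraries lay above both aRG libraries in 8 (22.1%) and below them in 14 (20.7%). These comparisons share libraries, and the values of each are given side by side below.

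The recurring pattern was a higher level in radial glia. In 11 of the 34 genes each of the 4 radial glia libraries lay above each of the 4 bIP and N libraries (32.4%, against 7.01% of all genes tested). These were the receptors FGFR1, FGFR2 and FGFR3, the ETS factors ETV4 and ETV5, the inhibitors DUSP6, SPRY2, SPRY4, SPRED1 and SPRED2, and 1 ligand, FGF2. The opposite ordering was seen in FGF11 alone (2.94%, against 5.62% of all genes). Both N libraries lay above the other 6 in 7 genes, DUSP5, SPRY3, FGF8, FGF12, FGF13, FGF14 and FGF18 (20.6%, against 11% of all genes), and below the other 6 in 7 genes, FGFR1, FGFR2, FGFR3, ETV5, DUSP6, SPRY1 and FGF7 (20.6%, against 10.9%). In FGF20 both bIP libraries lay above the other 6 (2.94%, against 5.34%). Some of these orderings rest on few reads. FGF8 had 12 counts (0.464 CPM) in N replicate 1 and 15 (0.442 CPM) in aRG replicate 2. FGF11 had 27 counts (1.05 CPM) in bIP replicate 1 and 26 (1.02 CPM) in aRG replicate 1.

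Of the 4 receptor genes, which encode the kinases that bind secreted FGFs, 3 fell in N over aRG and in N over bRG. This was 75% in each, against 4.8% and 3.39% of all genes. FGFR1 was at 32.1 and 13.6 CPM in N, 105 and 89.0 in bIP, 376 and 621 in bRG, and 462 and 806 in aRG (replicates 1 and 2, in this order throughout). N and bIP each lay below the radial glia without overlap, N lay below bIP, and bRG and aRG overlapped. FGFR1 fell 27.7-fold in N over aRG (log2 fold change −4.79, SE 0.47, adjusted p = 5.39e-05) and 6.53-fold in bIP over aRG (−2.71, SE 0.42, adjusted p = 0.00442). It fell by 2.36 on the log2 scale in bIP over bRG (SE 0.42, adjusted p = 0.0204). In N over bIP, which shares the bIP libraries, it fell by 2.08 (SE 0.42, adjusted p = 0.0197). The bIP over bRG call was lost without bIP replicate 1 (adjusted p = 0.0614) or bIP replicate 2 (0.123), and the N over bIP call without N replicate 2 (0.0908). Without N replicate 1 the N over aRG value was −5.55, the N over bRG value −5.20 against −4.44 with it, and the N over bIP value −2.84.

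FGFR2, the receptor whose splice forms bind different ligands, was at 18.2 and 7.68 CPM in N, 19.4 and 46.1 in bIP, 90.1 and 112 in bRG, and 127 and 150 in aRG. Both radial glia populations lay above N and bIP, and bIP replicate 1 was close to N replicate 1. FGFR2 fell 10.7-fold in N over aRG (−3.42, SE 0.47, adjusted p = 0.000573), 7.81-fold in N over bRG (−2.96, SE 0.47, adjusted p = 0.00264) and 4.24-fold in bIP over aRG (−2.08, SE 0.45, adjusted p = 0.0258). The last call was lost without bIP replicate 1 (adjusted p = 0.133) and without aRG replicate 2 (0.0558), and without bIP replicate 2 its value was −2.84. Without N replicate 1 the N over aRG value was −4.18 and the N over bRG value −3.72.

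FGFR3, which in the mouse cortex is expressed by ventricular progenitors, was at 9.71 and 8.67 CPM in N, 40.5 and 31.3 in bIP, 65.4 and 84.0 in bRG, and 62.6 and 106 in aRG. N was set apart from each of the other populations, and bIP lay between N and the radial glia. FGFR3 fell 9.16-fold in N over aRG (−3.19, SE 0.34, adjusted p = 0.000106), 8.12-fold in N over bRG (−3.02, SE 0.34, adjusted p = 0.000264) and 3.90-fold in N over bIP (−1.96, SE 0.33, adjusted p = 0.00785). In bIP over aRG its value was −1.23 (SE 0.32, adjusted p = 0.064), which missed the threshold, while it passed with DESeq2 (0.0124) and on the human genome (0.0400).

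FGFR4 passed in no comparison by edgeR. It was at 23.6 and 61.9 CPM in N, 16.8 and 30.3 in bIP, 20.0 and 30.2 in bRG, and 12.7 and 17.3 in aRG, and replicate 2 was the higher library in each population. Both N libraries lay above both aRG libraries, a difference of 1.51 on the log2 scale (SE 0.47, adjusted p = 0.0692) that missed the threshold with edgeR and passed it with DESeq2 (1.49, adjusted p = 0.0175). Within replicate numbers 1 and 2 the N over aRG differences were 0.89 and 1.83. In the RefSeq annotation of a different assembly, NHGRI_mPanTro3-v2.0, the locus of FGFR4 overlaps that of ZNF346, a zinc finger gene that stood at 131 and 157 CPM in N and at 126 and 161 CPM in aRG. The library method does not mark strand, so reads where the genes overlap cannot be assigned to either.

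**Figure D1:**
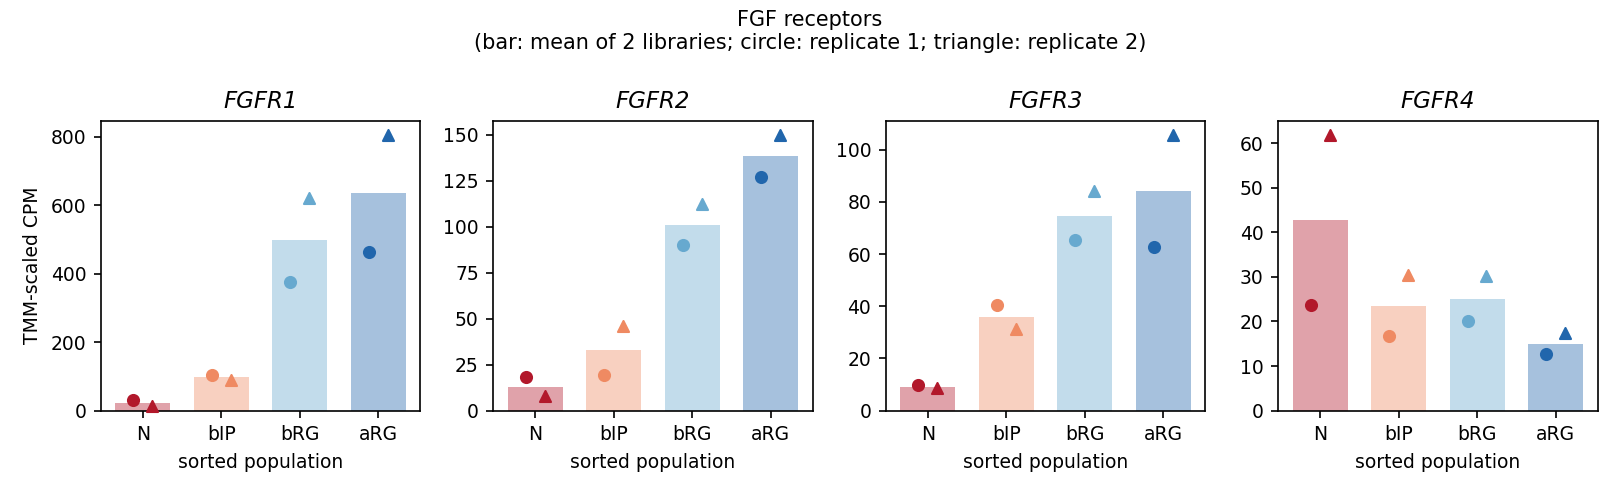
Levels of the 4 FGF receptor genes in TMM-scaled CPM (vertical axes, from 0, a scale for each gene) in N, bIP, bRG and aRG, with bars for means of 2 libraries, circles for replicate 1 and triangles for replicate 2. FGFR1, FGFR2 and FGFR3 are highest in the 2 radial glia populations and lowest in N, and FGFR4 is highest in N replicate 2, at 61.9 CPM.

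Both ETS factors, the transcription factors that carry FGF signals to target genes, fell in N and in bIP. Of all genes, 4.8% fell in N over aRG and 1.5% in bIP over aRG. ETV5 was at 3.91 and 1.55 CPM in N, 4.70 and 13.5 in bIP, 110 and 137 in bRG, and 132 and 156 in aRG. Radial glia and non-radial-glia libraries were separated by a gap, from 13.5 to 110 CPM. ETV5 fell 52.5-fold in N over aRG (−5.72, SE 0.57, adjusted p = 6.01e-05), 15.9-fold in bIP over aRG (−3.99, SE 0.52, adjusted p = 0.00162) and 13.5-fold in bIP over bRG (−3.76, SE 0.51, adjusted p = 0.00684). It also fell in N over bRG (−5.49, SE 0.56, adjusted p = 0.000125). Without N replicate 1 the N over aRG value was −6.54 and the N over bRG value −6.31, and without bIP replicate 2 the bIP values were −4.94 over aRG and −4.71 over bRG.

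ETV4 was at 2.17 and 2.42 CPM in N, 5.20 and 1.02 in bIP, 28.6 and 27.9 in bRG, and 36.9 and 46.6 in aRG. N and bIP overlapped, and both bRG libraries lay below both aRG libraries by a margin that did not pass (−0.57, SE 0.54, unadjusted p = 0.311). ETV4 fell 18.2-fold in N over aRG (−4.19, SE 0.62, adjusted p = 0.000869), 12.3-fold in N over bRG (−3.62, SE 0.60, adjusted p = 0.00391), 13.4-fold in bIP over aRG (−3.74, SE 0.60, adjusted p = 0.00538) and 9.04-fold in bIP over bRG (−3.18, SE 0.59, adjusted p = 0.0248). The bIP values turned on its libraries: over aRG they were −5.36 without bIP replicate 1 and −3.01 without replicate 2, and over bRG −4.79 and −2.44. The bIP over bRG call was lost when those populations alone were fitted (adjusted p = 0.0780).

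The 3 phosphatases took different courses. DUSP6, a cytoplasmic phosphatase specific to ERK, was at 3.13 and 5.18 CPM in N, 11.5 and 8.89 in bIP, 53.6 and 45.4 in bRG, and 76.5 and 57.5 in aRG, so the populations were ordered without overlap. It fell 16.1-fold in N over aRG (−4.01, SE 0.38, adjusted p = 4.44e-05), 11.9-fold in N over bRG (−3.58, SE 0.37, adjusted p = 0.000145), 6.55-fold in bIP over aRG (−2.71, SE 0.36, adjusted p = 0.00176) and 4.85-fold in bIP over bRG (−2.28, SE 0.35, adjusted p = 0.0117). The last call was lost without bIP replicate 2 (adjusted p = 0.0830). In N over bIP its value was −1.30 (SE 0.35, adjusted p = 0.0772), which passed with DESeq2 (0.0118).

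DUSP5, a nuclear phosphatase of ERK, ran the other way. It was at 12.9 and 28.7 CPM in N, 1.24 and 1.38 in bIP, 1.36 and 7.97 in bRG, and 0.393 and 3.24 in aRG. N stood above the rest, and replicate 2 was the higher library in each population. DUSP5 rose 11.3-fold in N over aRG (3.50, SE 0.97, adjusted p = 0.0397), a call lost without N replicate 2 (2.81, adjusted p = 0.161), without aRG replicate 1 (2.61, adjusted p = 0.146) and when N and aRG alone were fitted (adjusted p = 0.0517). Without aRG replicate 2 the value was 5.69. In N over bIP its value was 3.98 (SE 1.00, adjusted p = 0.0598, and 0.000125 with DESeq2). DUSP4, a nuclear phosphatase with broader targets among the MAP kinases, was at 73.5 and 45.7 CPM in N, 36.4 and 49.8 in bIP, 63.8 and 60.6 in bRG, and 101 and 84.1 in aRG. Both aRG libraries lay highest, and no comparison passed with edgeR, with −1.11 in bIP over aRG nearest (SE 0.30, adjusted p = 0.0832). This one passed with DESeq2 (adjusted p = 0.0240).

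Sprouty proteins block the relay from receptors to Ras. SPRY4 was at 2.98 and 1.86 CPM in N, 2.56 and 2.83 in bIP, 22.7 and 20.9 in bRG, and 26.5 and 24.8 in aRG. The radial glia values lay well above the rest, while N and bIP overlapped. SPRY4 fell 10.6-fold in N over aRG (−3.40, SE 0.43, adjusted p = 0.000311), 8.99-fold in N over bRG (−3.17, SE 0.43, adjusted p = 0.000978), 9.49-fold in bIP over aRG (−3.25, SE 0.43, adjusted p = 0.00176) and 8.07-fold in bIP over bRG (−3.01, SE 0.42, adjusted p = 0.00709). These calls held without each library in turn. SPRY4-AS1, named as its antisense partner, was at 2.55 and 1.21 CPM in N, 0.583 and 0.865 in bIP, 4.99 and 9.36 in bRG, and 5.62 and 4.75 in aRG, and the counts do not tell the strands apart.

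SPRY1 was lower in N but not detectably in bIP. Its levels were 17.0 and 23.3 CPM in N, 40.1 and 55.6 in bIP, 40.9 and 71.3 in bRG, and 49.4 and 91.4 in aRG, with replicate 2 higher in each population. The N libraries lay below the other 6, whose populations overlapped. SPRY1 fell by 1.81 on the log2 scale in N over aRG (SE 0.38, adjusted p = 0.00965) and by 1.48 in N over bRG (SE 0.38, adjusted p = 0.0404), against −0.56 in bIP over aRG (SE 0.37, adjusted p = 0.612). The N over aRG call was lost without N replicate 1 (adjusted p = 0.0569) or aRG replicate 2 (0.0766). The N over bRG call was lost without N replicate 1 (0.173), N replicate 2 (0.0686) or bRG replicate 2 (0.233), and when those populations alone were fitted (0.0683).

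The remaining Sprouty genes passed in no comparison by edgeR. SPRY2 was at 7.42 and 10.4 CPM in N, 6.76 and 9.99 in bIP, 18.9 and 20.6 in bRG, and 20.2 and 22.5 in aRG. Its radial glia libraries lay above the others, with −1.26 in N over aRG (SE 0.39, adjusted p = 0.0659) and −1.35 in bIP over aRG (SE 0.39, adjusted p = 0.103). DESeq2 called SPRY2 in both (adjusted p = 0.0138 and 0.0171) and in N over bRG (0.0425), and the human genome counts gave 0.0394 in N over aRG. SPRY3, the X-linked Sprouty gene, was at 4.41 and 9.75 CPM in N and at 0.590 and 2.98 CPM in aRG (1.98, SE 0.83, adjusted p = 0.185), so that it lay highest in N without passing.

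Spred proteins hold Ras in check with the help of neurofibromin. SPRED1 was at 29.2 and 19.8 CPM in N, 20.5 and 10.7 in bIP, 52.7 and 49.1 in bRG, and 74.9 and 47.5 in aRG. N and bIP overlapped, and both lay below the radial glia. It fell 3.92-fold in bIP over aRG (−1.97, SE 0.38, adjusted p = 0.0157) and 2.50-fold in N over aRG (−1.32, SE 0.38, adjusted p = 0.046). The bIP call was lost without bIP replicate 2 (adjusted p = 0.119) or aRG replicate 1 (0.0724). The N call was lost without N replicate 2 (0.238) or aRG replicate 1 (0.232), and when those populations alone were fitted (0.0632).

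SPRED2 was at 13.8 and 8.89 CPM in N, 19.6 and 6.96 in bIP, 26.4 and 28.7 in bRG, and 35.0 and 40.3 in aRG, with the widest gap between replicates in bIP. It fell by 1.73 on the log2 scale in N over aRG (SE 0.46, adjusted p = 0.0322), a call lost without N replicate 2 (adjusted p = 0.175) or aRG replicate 2 (0.0904). In bIP over aRG its value was −1.50 (SE 0.45, adjusted p = 0.122, and 0.0209 with DESeq2). SPRED3 was at 27.7 and 21.5 CPM in N, 16.1 and 16.6 in bIP, 28.1 and 34.6 in bRG, and 28.6 and 27.2 in aRG. Its bIP libraries lay lowest, and its values of −0.18 in N over aRG (SE 0.31, adjusted p = 0.805) and −0.77 in bIP over aRG (SE 0.31, adjusted p = 0.298) did not pass.

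**Figure D2:**
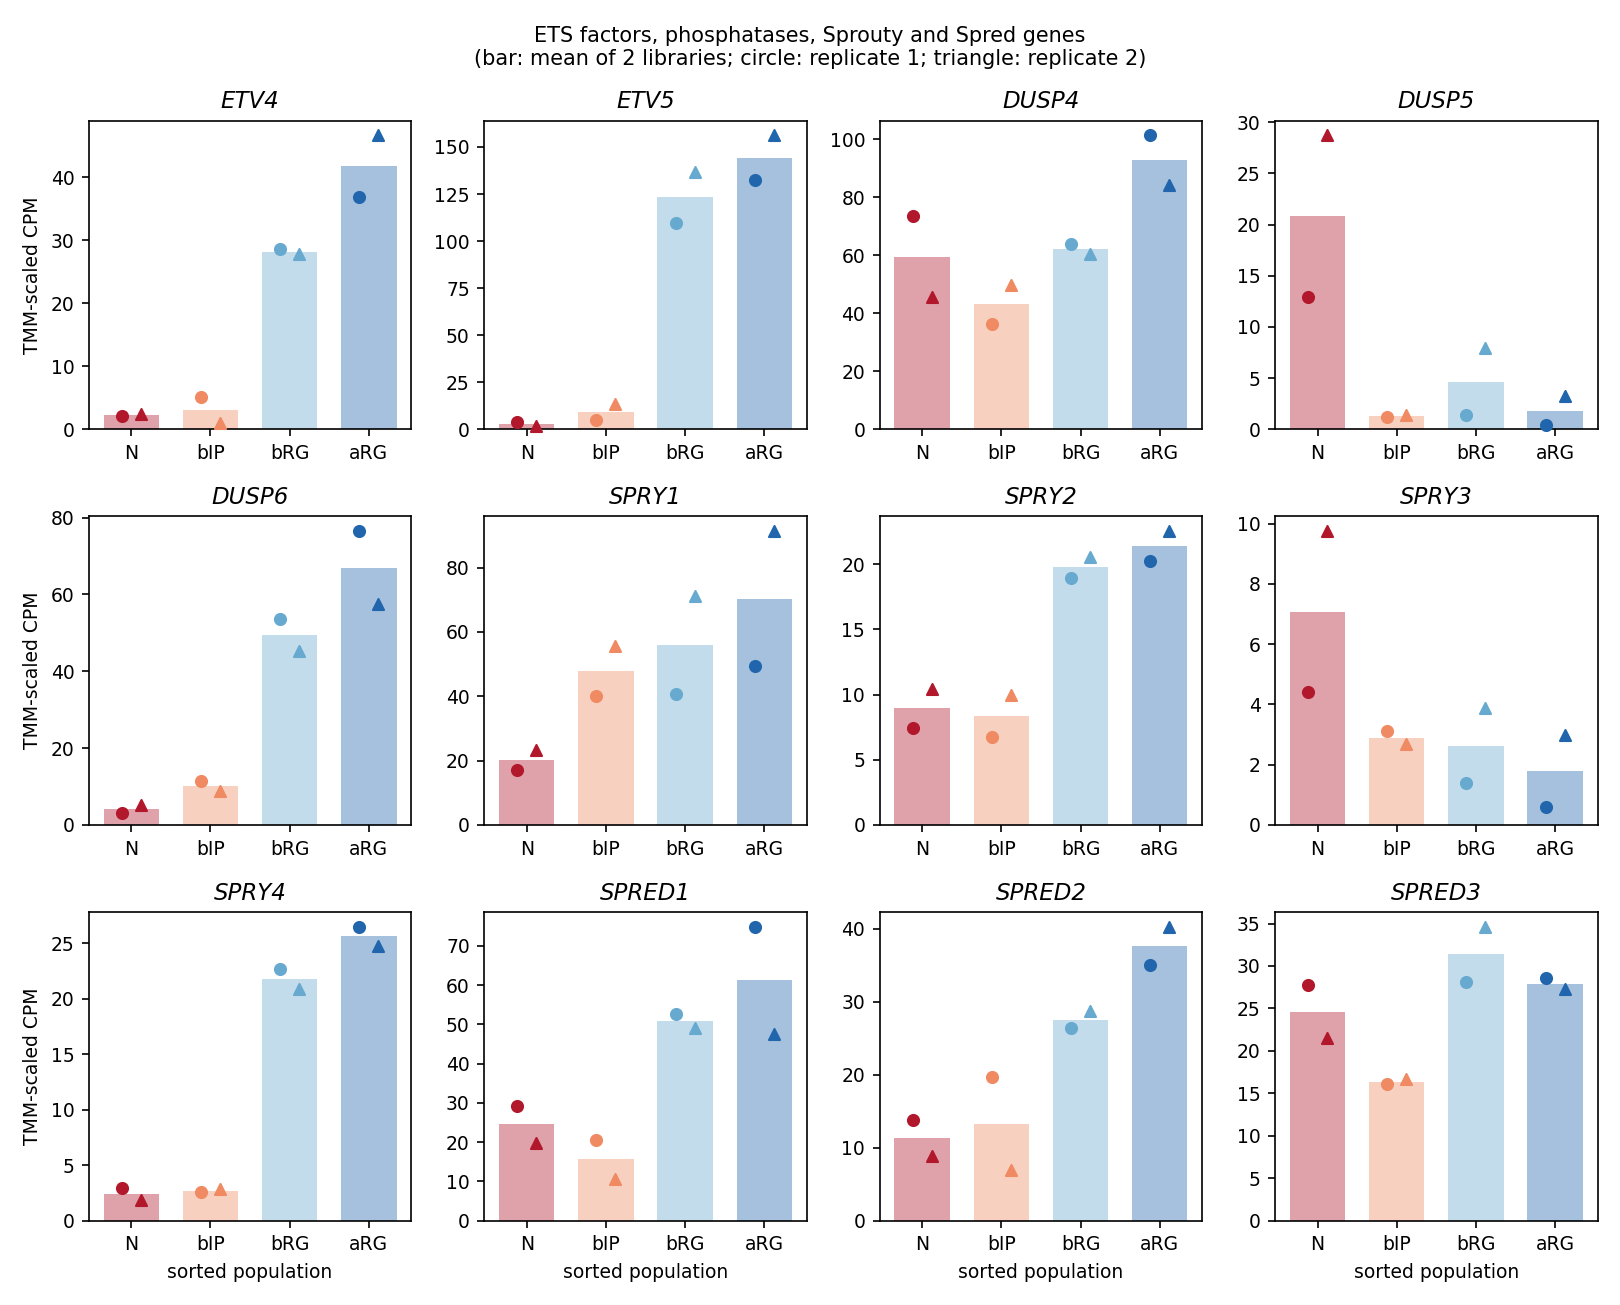
Levels of ETV4, ETV5, the 3 DUSP genes, the 4 Sprouty genes and the 3 Spred genes in TMM-scaled CPM (vertical axes, from 0, a scale for each gene) in N, bIP, bRG and aRG, with bars for means of 2 libraries, circles for replicate 1 and triangles for replicate 2. ETV4, ETV5, DUSP6 and SPRY4 drop off outside radial glia, SPRY1 is lowest in N, and DUSP5 is highest in N, at 12.9 and 28.7 CPM.

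FGF homologous factors were higher in N than in aRG in each of the 4 genes, without overlap (23% of all genes). Of the 4, 2 passed (50%, against 4.87% of all genes that rose). FGF13, which binds sodium channels and, in mouse cortical neurons, stabilises microtubules, was at 345 and 247 CPM in N, 74.0 and 73.7 in bIP, 62.4 and 95.4 in bRG, and 56.3 and 75.3 in aRG. N stood apart and the other populations overlapped. FGF13 rose 4.50-fold in N over aRG (2.17, SE 0.30, adjusted p = 0.000596), 4.01-fold in N over bIP (2.00, SE 0.30, adjusted p = 0.00434) and 3.75-fold in N over bRG (1.91, SE 0.30, adjusted p = 0.00265), and in bIP over aRG its value was 0.17 (SE 0.29, adjusted p = 0.905). Each of these 3 calls held without each library in turn. FGF13-AS1, named as antisense to it, reached at most 9.48 CPM.

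FGF14, a sodium channel partner at the axon initial segment, was at 31.0 and 18.6 CPM in N, 11.9 and 6.92 in bIP, 14.9 and 11.8 in bRG, and 7.75 and 6.13 in aRG. N lay highest, and replicate 1 was the higher library in each population. It rose 3.57-fold in N over aRG (1.84, SE 0.44, adjusted p = 0.0198), a call lost without N replicate 1 (adjusted p = 0.134), aRG replicate 1 (0.0767) or aRG replicate 2 (0.135). FGF14-AS2, named as antisense to it, was at 3.44 and 0.691 CPM in N and at 16.3 and 10.6 CPM in aRG, levels that reach those of FGF14 itself in these unstranded counts.

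FGF12 was at 16.9 and 27.1 CPM in N, 9.40 and 9.87 in bIP, 5.29 and 11.9 in bRG, and 7.91 and 1.03 in aRG. N was highest and the aRG libraries were far apart, with 2.31 in N over aRG (SE 0.75, adjusted p = 0.0809, and 0.00772 with DESeq2). FGF11 was at most 2.91 CPM in any library, with 1.31 and 1.25 CPM in N and 1.02 and 0.236 CPM in aRG, and passed in no comparison.

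Of 8 voltage-gated sodium channel genes reported here, whose products the homologous factors bind, 4 rose in N over aRG (50%, against 4.87% of all genes). They are not the whole family, so no median is given for them. SCN2A, a main channel of excitatory neurons, was at 399 and 410 CPM in N and at 16.8 and 18.8 CPM in aRG, without overlap (4.50, adjusted p = 6.25e-05). SCN3A, the channel of the fetal brain, was at 232 and 243 CPM in N, 151 and 226 in bIP, and 17.4 and 27.8 in aRG. It rose by 3.39 in N over aRG on the log2 scale (adjusted p = 5.44e-05) and already by 3.06 in bIP over aRG (adjusted p = 0.000602), where FGF13 had 0.17. SCN8A rose by 1.78 in N over aRG (adjusted p = 0.00119). In bIP over aRG 3 of the 8 rose (37.5%, against 1.34% of all genes). Of these SCN2A (1.66, adjusted p = 0.0476) was lost without bIP replicate 1 (0.71, adjusted p = 0.476), aRG replicate 1 (0.175) or aRG replicate 2 (0.117), and when those populations alone were fitted (0.116). SCN8A (1.13, adjusted p = 0.0468) was lost without each bIP and aRG library in turn (adjusted p 0.0959 to 0.325) and when those populations alone were fitted (0.0697). In bRG over aRG 0 of 8 passed, where 3 had an unadjusted p under 0.05. Neuron markers moved with these genes, their sum being 5004 and 5082 CPM in N, 3211 and 4181 in bIP, 1002 and 1667 in bRG, and 700 and 956 in aRG, and their part in the result was not tested.

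Among the 14 secreted ligands tested, 1 rose in N over aRG (7.14%, against 4.87% of all genes), and the median log2 fold change was 0.44 against −0.08 over all genes tested. FGF18, a ligand of the FGF8 subfamily, was at 13.4 and 44.4 CPM in N, 1.51 and 2.60 in bIP, 4.02 and 6.49 in bRG, and 2.28 and 1.59 in aRG. N lay above the other 6 libraries with its own libraries far apart, and bRG lay above bIP and aRG. FGF18 rose 14.9-fold in N over aRG (3.90, SE 0.65, adjusted p = 0.00192), 14.0-fold in N over bIP (3.81, SE 0.64, adjusted p = 0.0086) and 5.50-fold in N over bRG (2.46, SE 0.60, adjusted p = 0.0318). Without N replicate 2 these values were 2.79 (adjusted p = 0.0268), 2.71 (adjusted p = 0.0896, so lost) and 1.35 (adjusted p = 0.431, lost). Without N replicate 1 they were 4.52, 4.43 and 3.07. The N over bRG call was also lost without bRG replicate 1 (0.202), narrowly without bRG replicate 2, and when those populations alone were fitted (0.0627).

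FGF2, the mitogen used to grow neural stem cells in culture, was at 7.15 and 2.76 CPM in N, 12.9 and 3.46 in bIP, 21.5 and 13.5 in bRG, and 22.0 and 14.4 in aRG. Radial glia libraries lay above the rest, by little over bIP replicate 1, and replicate 1 was the higher library in each population. Its values of −1.87 in N over aRG (SE 0.64, adjusted p = 0.0965) and −1.15 in bIP over aRG (SE 0.62, adjusted p = 0.482) did not pass. DESeq2 called FGF2 in N over aRG (adjusted p = 0.0152) and in N over bRG (0.0277). NUDT6, a gene that overlaps FGF2 in the RefSeq assembly named above, was at 2.03 to 3.94 CPM in N and 3.01 to 3.54 CPM in aRG.

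FGF9, which in the mouse supports progenitor proliferation, was at 24.6 and 4.70 CPM in N, 8.04 and 12.8 in bIP, 8.85 and 4.32 in bRG, and 2.05 and 6.40 in aRG. The N libraries were far apart and overlapped each of the other populations, and the N over aRG value of 1.79 (SE 0.76, adjusted p = 0.188) did not pass. FGF22, a presynaptic organiser in the mouse, was at 2.67 and 2.63 CPM in N, 6.37 and 5.90 in bIP, 2.08 and 6.46 in bRG, and 1.53 and 0.855 in aRG. Its aRG libraries lay lowest, with 2.36 in bIP over aRG (SE 0.71, adjusted p = 0.121, and 0.0143 with DESeq2).

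FGF7, a mesenchymal ligand of the epithelial form of FGFR2, had 0 counts in both N libraries on the chimpanzee genome. It was at 0.621 and 1.02 CPM in bIP, 1.20 and 1.45 in bRG, and 0.275 and 0.265 in aRG. Against a floor of 3 counts in each N library (mean 0.123 CPM, for counting error only), FGF7 in these counts was at least 10.8-fold lower in N than in bRG, at least 6.70-fold lower than in bIP and at least 2.20-fold lower than in aRG. edgeR called it in N over bRG (adjusted p = 0.0326). The call was lost without each of the N and bRG libraries in turn (adjusted p 0.0974 to 0.121), when those populations alone were fitted (0.0596) and on the human genome, where the N libraries had 1 and 8 counts (0.342). On the human genome FGF7 averaged 0.361 CPM in N, 1.13 in bIP, 1.72 in bRG and 0.435 in aRG, and N over aRG was −0.10 on the log2 scale, so the bounds above do not hold there. Its locus overlaps FAM227B in the RefSeq assembly, which was at 2.36 and 2.24 CPM in N.

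The other 9 ligands tested were low and passed in no comparison. FGF1, FGF3, FGF5, FGF6, FGF8, FGF10, FGF17, FGF20 and FGF23 had population means of at most 2.61 CPM. FGF8, a patterning signal of the anterior forebrain, was at 0.464 and 0.691 CPM in N and at 0.275 and 0.442 CPM in aRG. FGF20 was at 1.01 and 0.865 CPM in bIP and at 0 and 0.413 CPM in aRG.

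**Figure D3:**
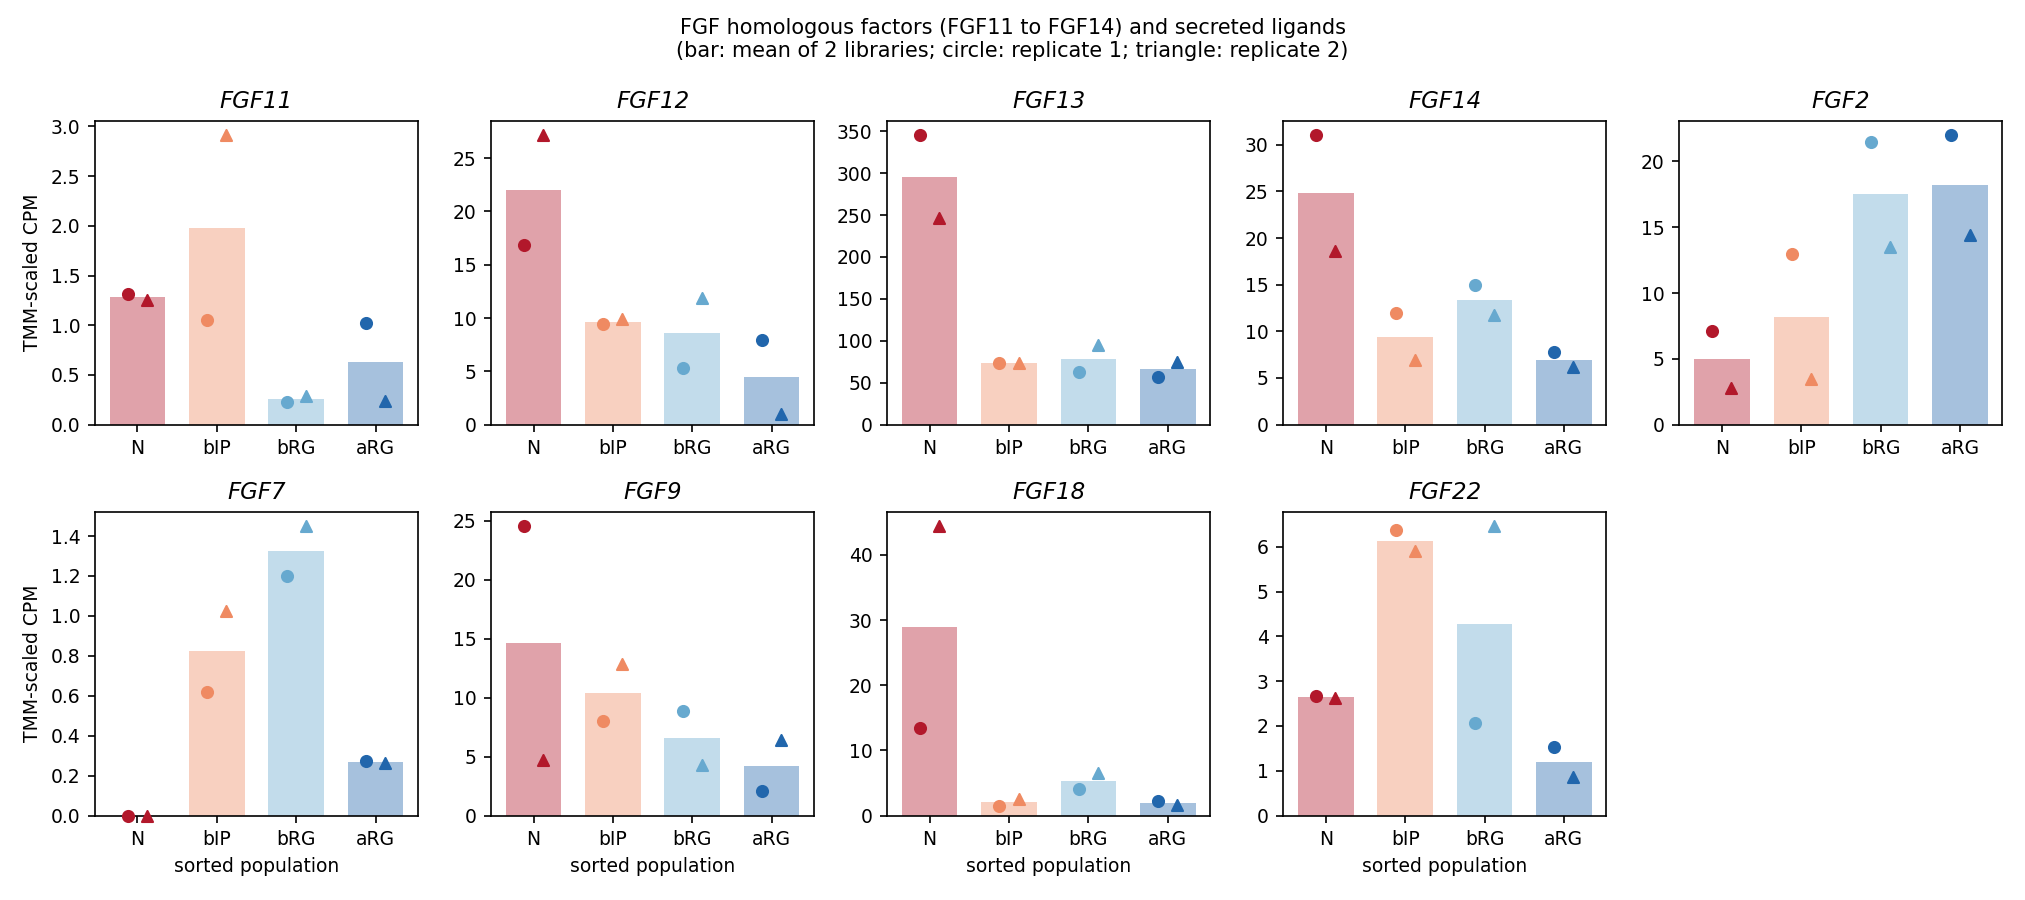
Levels of the 4 FGF homologous factors and of 5 secreted ligands in TMM-scaled CPM (vertical axes, from 0, a scale for each gene) in N, bIP, bRG and aRG, with bars for means of 2 libraries, circles for replicate 1 and triangles for replicate 2. FGF13 is at 345 and 247 CPM in N and below 100 CPM elsewhere, FGF18 is highest in N with its libraries far apart, and FGF2 is highest in radial glia.

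Between basal and apical radial glia no member passed. In bRG over aRG 0 of 34 passed with edgeR and 0 with DESeq2. With edgeR 2, FGF18 and FGF22, had an unadjusted p under 0.05. The share of all genes with such a p is not given here, so these 2 are not read as a result about the members. FGF18 was at 4.02 and 6.49 CPM in bRG and at 2.28 and 1.59 CPM in aRG (1.44, SE 0.60, unadjusted p = 0.0323). FGF22 had 1.84 (SE 0.70, unadjusted p = 0.0219), with differences of 0.41 and 2.84 within replicate numbers 1 and 2. Both bRG libraries lay above both aRG libraries in 5 of 34 genes, against 17.5% of all genes, and below them in 7 of 34, against 14.1%. The genes that were high in radial glia had log2 fold changes in bRG over aRG of −0.35 for FGFR1 (SE 0.40), −0.45 for FGFR2 (SE 0.43), −0.17 for FGFR3 (SE 0.31), −0.23 for ETV5 (SE 0.45), −0.44 for DUSP6 (SE 0.33) and −0.24 for SPRY4 (SE 0.39). With 2 libraries a population, missing the threshold does not show that the levels were equal. Mitosis genes, summed over 8, were at 1217 and 1170 CPM in bRG and at 3108 and 2820 CPM in aRG. With edgeR 8 of 8 had an unadjusted p under 0.05 and 0 passed, with both bRG libraries below both aRG libraries in 8. Neuron markers summed to 1002 and 1667 CPM in bRG and to 700 and 956 CPM in aRG, and 5 of 8 had an unadjusted p under 0.05, with both bRG libraries above both aRG libraries in 5. Their part in the values of FGF18 and FGF22 was not tested.

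**Figure D4:**
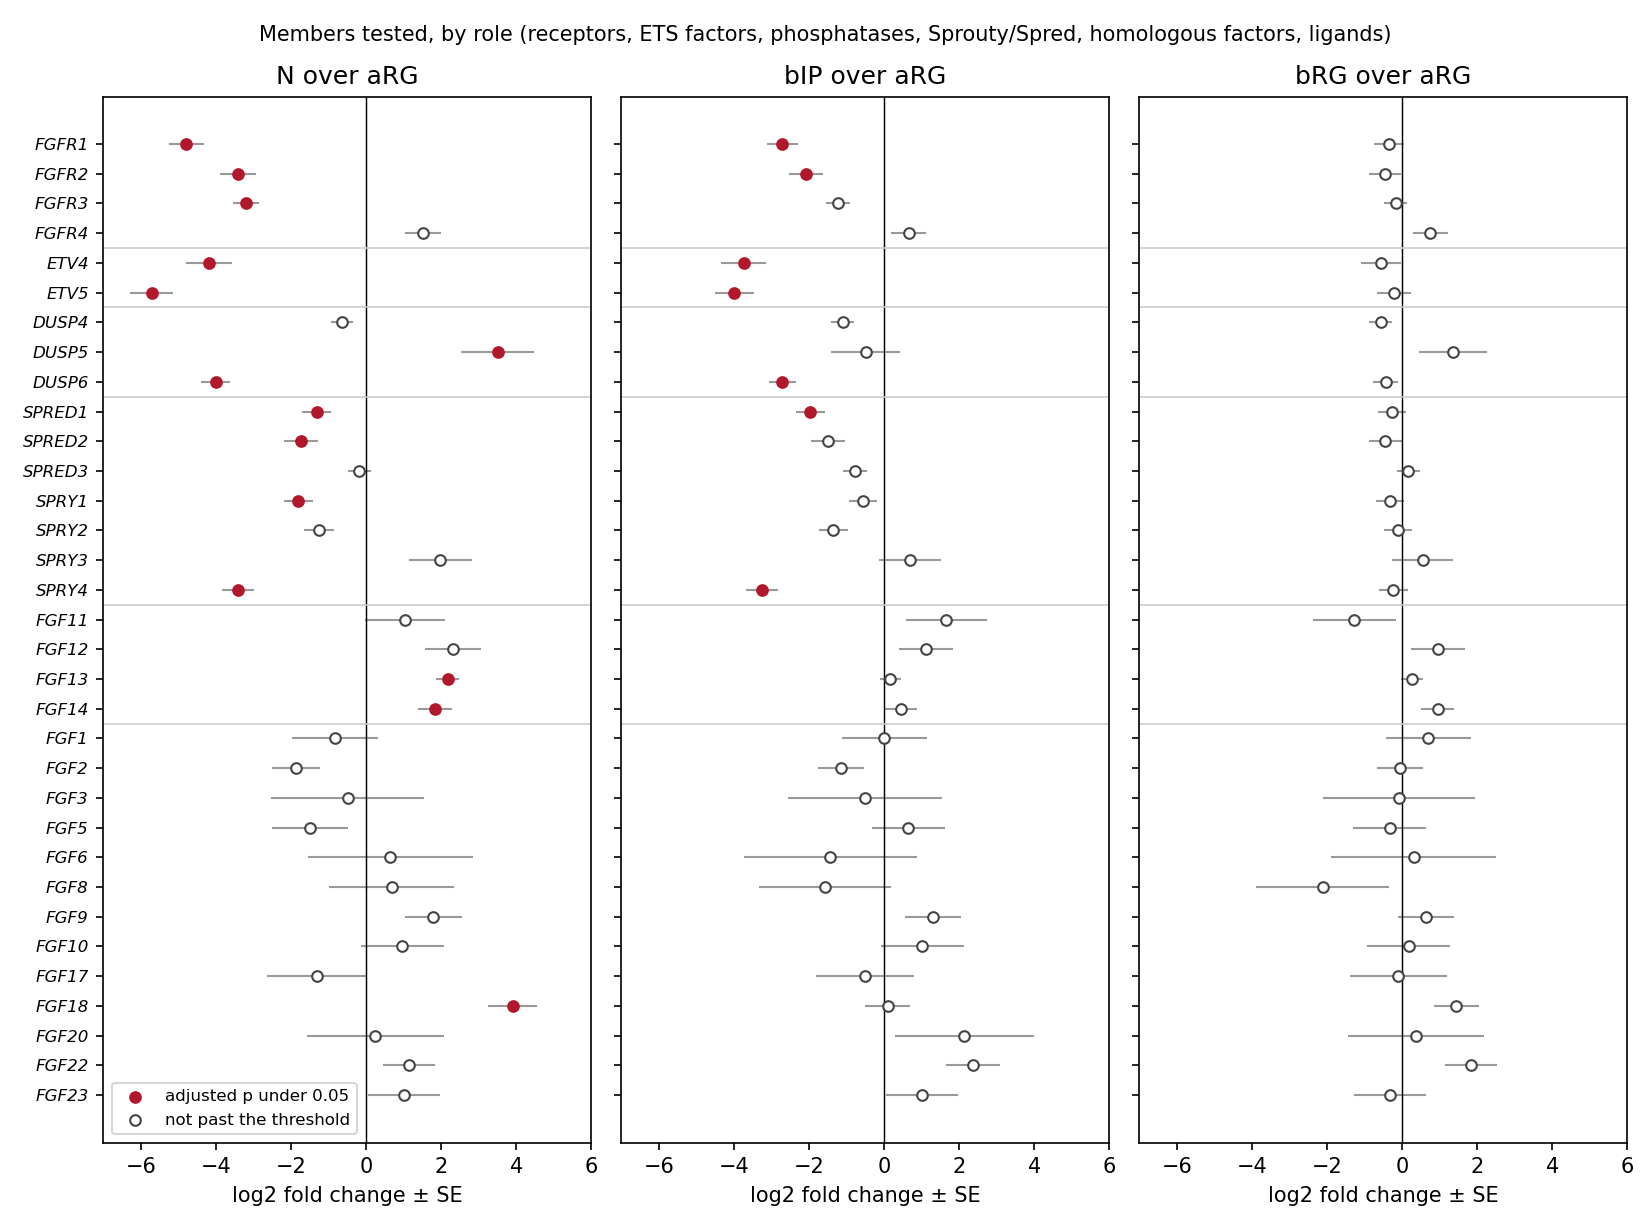
Log2 fold changes (horizontal axes, ± SE) of the tested genes in N over aRG, bIP over aRG and bRG over aRG, grouped by role, with filled red points for an adjusted p under 0.05. FGF7, at 0 in N, is left out. FGFR1, FGFR2, FGFR3, the ETS factors, DUSP6 and SPRY4 lie to the left in N and bIP, FGFR4 lies to the right at 1.51 in N and 0.65 in bIP without passing, FGF13, FGF14, FGF18 and DUSP5 pass on the right in N, and 0 genes pass in bRG.

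With bIP set against bRG and against N, the share that passed was above that of all genes (14.7% against 1.03% in bIP over bRG, 11.8% against 2.54% in N over bIP). In bIP over bRG the 5 genes that fell were FGFR1, ETV4, ETV5, DUSP6 and SPRY4. In N over bIP FGFR1 and FGFR3 fell and FGF13 and FGF18 rose, while ETV4 (−0.44, SE 0.57, adjusted p = 0.779), SPRY4 (−0.16, SE 0.41, adjusted p = 0.906) and ETV5 (−1.73, SE 0.49, adjusted p = 0.0974) did not pass. With DESeq2, SPRED1 (adjusted p = 0.00132) and FGFR2 (0.0121) also passed in bIP over bRG. In N over bIP DESeq2 called 11 members, among them ETV5 (0.00798), and the share of all genes it called is not given here. These comparisons share the bIP libraries, so their values are not independent.

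Genes around the core pathway were taken from 3 lists. Of 21 co-receptors and extracellular modulators, 6 fell and 0 rose in N over aRG (28.6%, against 9.67% of all genes in either direction). Their median was −0.63, against −0.08 over all genes tested. In bIP over aRG 1 fell and 0 rose (4.76%, against 2.83% of all genes in either direction), with a median of −0.26 against 0.05. In bRG over aRG 0 passed, where 1 had an unadjusted p under 0.05. FGFBP3, a carrier that frees FGFs from heparan sulfate, was at 21.5 and 13.2 CPM in N, 52.1 and 35.1 in bIP, 335 and 198 in bRG, and 294 and 247 in aRG. It followed the radial glia pattern without overlap and fell by 3.96 on the log2 scale in N over aRG (adjusted p = 4.42e-05) and by 2.63 in bIP over aRG (adjusted p = 0.00193). HS6ST3, a heparan sulfate 6-O-sulfotransferase, was at 5.92 and 2.07 CPM in N and at 37.0 and 50.8 CPM in aRG (−3.45, adjusted p = 0.00184, and −4.41 without N replicate 1). SULF1, an enzyme that removes these sulfates, fell by 2.57 in N over aRG (adjusted p = 0.0162), a call lost without N replicate 1 (−1.92, adjusted p = 0.0705) or aRG replicate 2 (0.0750). Without N replicate 2 its value was −3.76. Its levels were 1.62 and 5.83 CPM in N and 19.0 and 25.1 CPM in aRG.

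In the relay from receptor to ERK the calls were near or under the share of all genes. Of 29 adaptors, Ras and Raf proteins and kinases, 1 passed in N over aRG (3.45%, against 9.67% of all genes), 0 in bIP over aRG (against 2.83%) and 0 in bRG over aRG by edgeR, where 8, 3 and 0 had an unadjusted p under 0.05. Their medians were 0.03 in N over aRG, −0.04 in bIP over aRG and −0.07 in bRG over aRG, against −0.08, 0.05 and 0.02 over all genes tested. GRB2, the adaptor that links receptors to the Ras activator SOS, was at 175 and 162 CPM in N and at 73.6 and 88.3 CPM in aRG. It rose by 1.05 on the log2 scale (adjusted p = 0.0189), a call lost without each N and aRG library in turn (adjusted p 0.0509 to 0.194).

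Other genes known to respond to ERK moved in both directions. Of 18 listed, 16 were tested. CCND1 and SPSB1 were listed at 0 on the chimpanzee genome. In N over aRG 5 fell and 2 rose (43.8%, against 9.67% of all genes), with a median of −1.53, against −0.08 over all genes. In bIP over aRG 2 fell and 1 rose (18.8%, against 2.83% of all genes in either direction), with a median of −0.05 against 0.05. In bRG over aRG 0 passed and 1 had an unadjusted p under 0.05. ETV1, the third factor of the ETV4 and ETV5 subfamily, was at 3.02 and 4.27 CPM in N, 27.0 and 38.4 in bIP, 65.5 and 55.7 in bRG, and 76.4 and 66.9 in aRG. It fell by 4.30 on the log2 scale in N over aRG (adjusted p = 1.48e-05), and its bIP libraries kept an intermediate level. PHLDA1, an ERK-induced regulator, fell by 3.31 in N over aRG (adjusted p = 3.32e-05) and was at 154 and 181 CPM in bIP, overlapping 217 and 175 CPM in aRG.

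The immediate early genes FOS and EGR1, which sorting and dissociation can also induce, fell in bIP over aRG by 5.18 (adjusted p = 0.0046) and 4.33 (adjusted p = 0.00778). EGR1 was at 6.99 CPM or less in N and at 263 and 59.1 CPM in aRG, and it fell by 4.68 in N over aRG (adjusted p = 0.00165). Without aRG replicate 1 EGR1 had −2.93 in bIP over aRG and −3.30 in N over aRG, and without aRG replicate 2 it had −5.04 and −5.41 in these comparisons. Without bIP replicate 2 EGR1 had −4.93 in bIP over aRG and FOS −6.71, and without bIP replicate 1 FOS had −4.46. DUSP8 and DUSP9, phosphatases of MAP kinases, rose in N over aRG by 1.93 (adjusted p = 0.00217) and 2.90 (adjusted p = 0.00116). DUSP8 also rose in bIP over aRG (1.73, adjusted p = 0.0129), a call lost without bIP replicate 1 (0.113), aRG replicate 1 (0.0552) or aRG replicate 2 (0.0719).

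A second table held the same libraries counted on the human genome, hg38. It listed 35 of the 38 genes. FGF13, FGF16 and SPRY3 are X-linked and were not in it, as the human table held 1 of 978 X-linked coding symbols. Of 28 genes tested on both genomes, FGF7 aside, 27 had the same sign in N over aRG and 28 in bIP over aRG. FGF20, at most 1.01 CPM in each library on the chimpanzee genome, had the opposite sign in N over aRG. The largest difference in N over aRG was 0.72 on the log2 scale, in FGF22. On the human genome ETV5 had −5.53 in N over aRG (adjusted p = 4.51e-05), FGFR1 −4.76 (adjusted p = 6.31e-05) and DUSP6 −4.06 (adjusted p = 5.42e-05), and ETV5 and DUSP6 also passed in N over bIP there (adjusted p = 0.0443 and 0.0423).

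**Figure D5:**
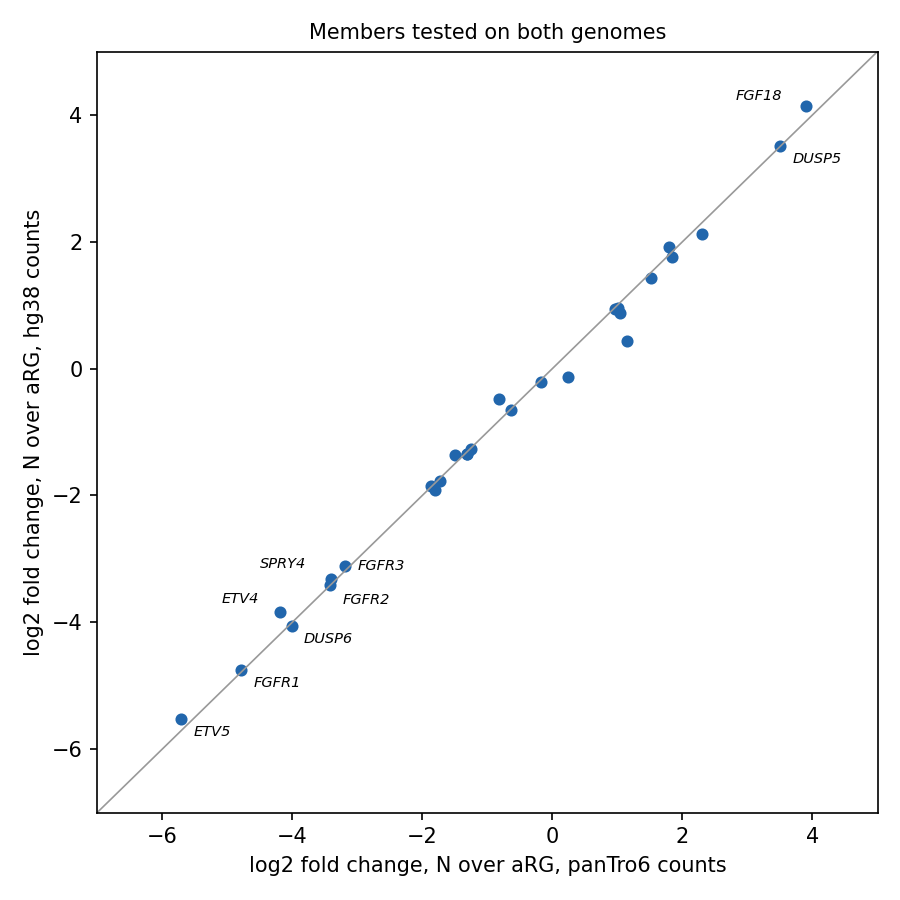
Log2 fold changes in N over aRG from counts on the chimpanzee genome (horizontal axis) and on the human genome (vertical axis) for the 28 genes tested on both other than FGF7; the line marks equality. Points lie near the line, from ETV5 at −5.72 and −5.53 to FGF18 at the upper right, and FGF22 lies 0.72 below it.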

How the data were processed

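Bulk RNA-seq libraries were made from 10000 sorted cells each by a Smart-seq2 protocol with 12 to 17 PCR cycles and tagmentation, per the labels' protocols. This method marks neither strand nor molecules, so floors cover counting error alone. The authors deposited raw counts of reads, 1 row for each gene symbol, on panTro6 (chimpanzee) and hg38 (human). STAR was used, per the submitters' processing notes; no source used here gives its version, the annotation or the counting program. In the panTro6 counts even values were overrepresented (21576 values of 2 against 16443 of 1), and totals over shared symbols were 1.70 to 1.74 times those on hg38, so halved counts were also tested. A row with no gene name, 0.00545% to 0.00771% of counts, was left out.

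The 38 members and all lists were chosen with earlier results of these data known. Genes were filtered with filterByExpr, scaled by TMM and fitted in a single edgeR 4.0.16 quasi-likelihood model (R 4.3.3) over the 8 libraries, with 4 residual degrees of freedom and a common biological coefficient of variation of 0.629. Tests were two-sided and adjusted by Benjamini-Hochberg over 35382 genes within each comparison, threshold 0.05. Counts of genes with an unadjusted p under 0.05 are given without the share over all genes. SE was derived from the F statistic, and differences within replicate numbers used a prior count of 2. DESeq2 1.42.0 was an alternative. The fit was checked on simulated counts. Values are given for each library of the genes that passed in a comparison or reached a mean of 10 CPM, and list genes are the 3 with the smallest adjusted p in each direction. RefSeq names matched 37 of the 38 genes. The mean chi-square per gene between replicates, the squared difference from expectation relative to counting noise, was 43.1 to 67.6 within populations. A sodium channel gene of the lists is not reported here and was taken out of its list's counts after the results were known.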

Additional observations from a re-analysis of the deposited data

Results flagged for a closer look

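FGF19, an endocrine ligand, had 37 counts over the 8 libraries on the human genome and 0 on the chimpanzee genome, a signal in a table that the comparisons do not use. Of its neighbours in RefSeq, CCND1 was also at 0 on the chimpanzee genome, with 2943 counts on the human genome. LTO1, next to FGF19, had 9833 counts on the chimpanzee genome and 5103 on the human genome, and FGF4 had 32 on the chimpanzee genome and 18 on the human genome. In all, 1052 symbols of both tables were at 0 in each chimpanzee-genome library, and 293 of these had over 1000 counts on the human genome. The level of FGF19 on the chimpanzee genome is therefore given as listed at 0, and the cause was not tested.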

How the results depend on the processing

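The 41 calls of members gave 488 values under the alternatives: 451 kept their direction and stayed past the threshold, 37 kept their direction and missed it, and 0 reversed. In bIP over aRG, 12 members passed with DESeq2, 11 with no low-count filter and 11 with the replicate number as a block, against 7. In N over bIP, 11 passed with DESeq2, 10 with no filter and 8 with the block, against 4. The share of all genes that passed under each alternative is not given here. Counts of members under the alternatives are therefore not read as a gain of members over other genes. Leaving out 1 library gave 0 to 0 members in bRG over aRG, 6 to 8 in bIP over aRG, 11 to 14 in N over aRG, 3 to 5 in bIP over bRG, 8 to 9 in N over bRG and 2 to 7 in N over bIP; the lone library is then assumed to vary like the others. Samples of the same replicate number had correlated deviations of 0.0385 to 0.0998, all under the 0.1 set for pairing, so the number was not taken to pair them; MALAT1 shares did differ by number, and an effect of the number was not tested further. With the block 17 members passed in N over aRG, 7 in bIP over bRG, 16 in N over bRG and 0 in bRG over aRG, with FGFR4 in N over aRG (adjusted p = 0.00708) and SPRY2 in N over aRG (0.0234) and bIP over aRG (0.0310) among those gained. The 19 calls of list genes gave 227 values, an addition chosen after seeing the data, of which 18 missed the threshold and 0 reversed. Scaling by DESeq2 size factors moved the median of all genes by at most 0.025 on the log2 scale. The 4 ligands not tested had at most 10 counts in any library; which other genes depth limits was not tested.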
